A study of Mus musculus with 4 samples.

Results

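The NF-kB subunits and their inhibitors were followed across the 4 conditions of the study. The genes are Rela, Relb, Rel, Nfkb1 and Nfkb2, which encode the subunits, Nfkbia, Nfkbib and Nfkbie, which encode the classical IkB inhibitors, and Nfkbiz and Bcl3, which encode nuclear IkB proteins. They were taken by gene symbol, as every probe set of the table annotated to 1 of these 10 genes. This gave 18 of 45101 probe sets, for 9 of the 10 genes, and Nfkb1 had no probe set under its symbol in the annotation used. RAW264.7, a mouse macrophage line, had been cultured for 4 days, with 1 Affymetrix array for each condition. NC was the normoxia control, NC+IL6 was normoxia with IL6 at 25 ng/ml, HC was the hypoxia control at 1% oxygen, and HC+IL6 was hypoxia with the same IL6. All 4 groups are cultures of 1 cell line, and no group has a replicate. No difference therefore has a test or a p-value, and precision is limited by how few arrays there are.

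NF-kB is a family of transcription factors that bind DNA as dimers. RelA, RelB and c-Rel carry a domain that activates transcription, whereas the products of Nfkb1 and Nfkb2 are made as long precursors that are cut to the DNA-binding subunit. In resting cells the classical IkB proteins hold the dimers in the cytoplasm, until the IKK kinase marks them for degradation and the dimers enter the nucleus. Nfkbia is itself a target of NF-kB, so that its product closes a feedback loop. IkB-zeta, from Nfkbiz, and Bcl3 act inside the nucleus, where they bind subunits on the DNA and change which target genes are read. In macrophages the pathway is known for driving cytokine and chemokine genes after contact with bacterial products.

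Values are log2 signals, and levels are compared only for the same probe set on different arrays. A difference of 1 on this scale is 2-fold, and a gene was called higher or lower at 2-fold or more if its brighter array lay above a background floor. The floor lay at the 95th percentile of the signals of 110 probe sets whose 64 genes belong to other tissues, and on the log2 scale it was 6.70 in NC, 6.81 in HC, 6.76 in NC+IL6 and 6.85 in HC+IL6. All 12 macrophage markers, such as Csf1r and Cd68, were above the floor on all 4 arrays. Their summed signal ranged from 170169 to 183373, but it is set mainly by the brightest markers. Csf1r had log2 signals of 15.01 in NC and 14.73 in HC+IL6, whereas Itgam had 8.43 and 11.12 and Fcgr3 10.36 and 12.76. None of the 4 measured T cell, 4 B cell, 5 fibroblast and 5 endothelial markers was above the floor on any array. Of 5 epithelial markers Epcam alone was, in NC, at 7.18. Beta-actin, whose signal at the 3' end over that at the 5' end reflects RNA integrity, had ratios of 1.54 in NC, 1.73 in HC, 1.41 in NC+IL6 and 1.62 in HC+IL6. The ratio of Gapdh was 0.933 in NC, 0.873 in HC, 0.931 in NC+IL6 and 0.878 in HC+IL6. In the hypoxic cultures the first ratio was thus higher and the second lower, and their part in the hypoxia ratios was not tested.

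All 9 measured members had a probe set above the floor on every array, and of the 18 probe sets 15 were above it on 4 arrays, 1 on 3 and 2 on none. The brightest probe set stands for each gene. By this measure 6 of the 9 members were highest in HC+IL6, and 5 were lowest in NC. Nfkbiz and Bcl3 had the largest differences, Rel was the only member called lower, and Rela was the flattest of the 9.

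**Figure D1:**
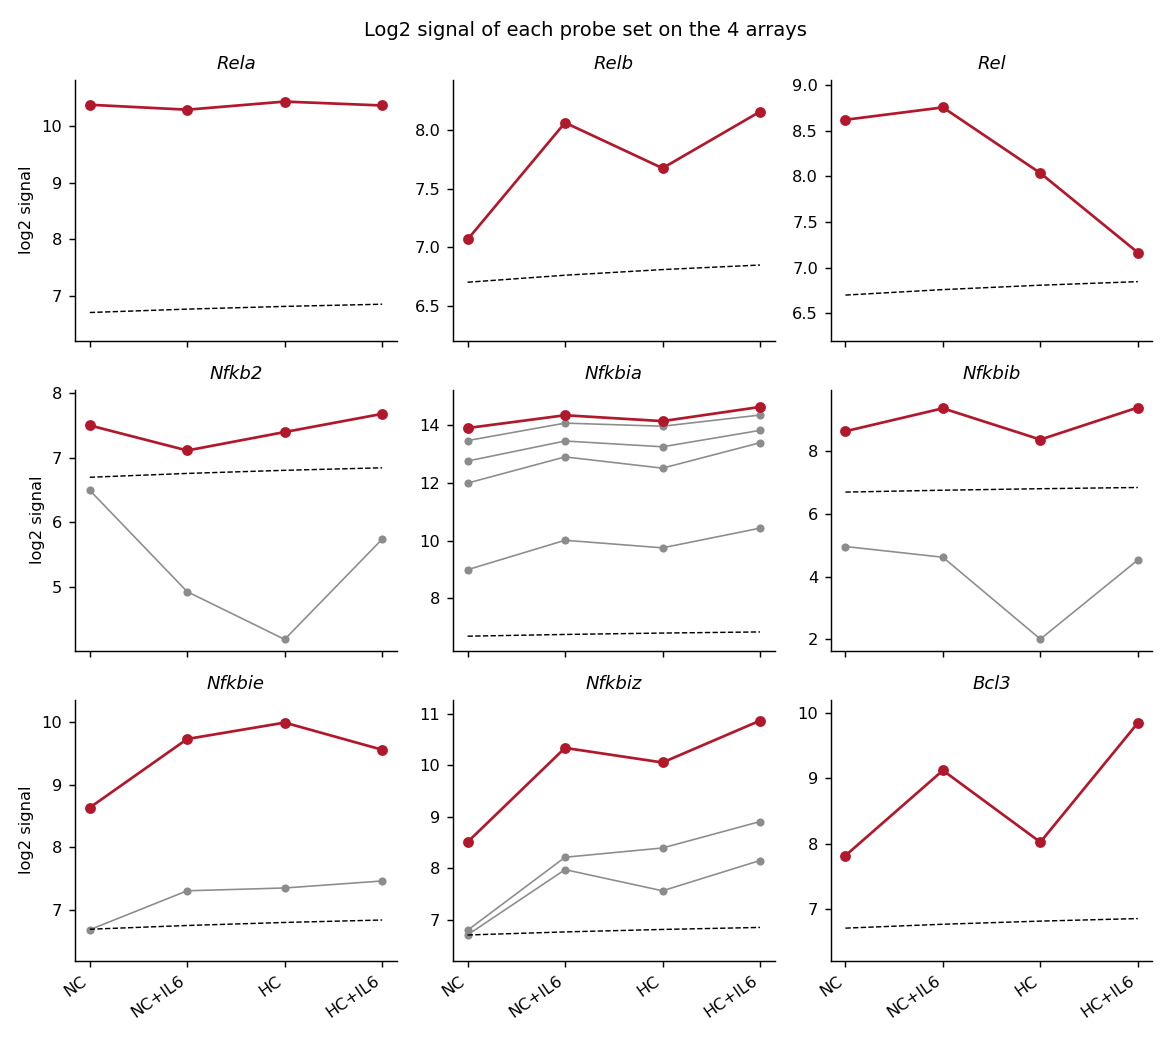
Log2 signal (vertical axis) of every probe set of the 9 measured genes on the 4 arrays (horizontal axis), 1 array per condition. Red is the brightest probe set, grey the others, and the dashed line is the background floor. Nfkbiz climbs from 8.51 in NC to 10.87 in HC+IL6, Rel drops from 8.62 to 7.17, and Rela stays between 10.29 and 10.44.

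Upstream sequence was read from the RefSeq promoter table of GRCm38.p6 for the 250 bases before the annotated start, since kB motifs in a gene's own promoter are how the pathway is known to feed back on its members. Of the 10 members, 7 had 9 windows there. Nfkbiz, Relb and Nfkb1 had none. The kB motif, a 10-base site, was searched on both strands and found in the windows of Rel, Nfkb2, Nfkbia and Nfkbie, which is 4 of 7 members and 6 of their 9 windows. Of all 32851 windows of the same length in the table, 7.25% held it. No match was found for Rela, Nfkbib or Bcl3 in this window. All matches were picked by the same motif, which starts with GGG and ends with CC and was read on either strand. Likeness among them therefore follows from the search. The matched letters, on the strand of the gene and with their distance in bases before the start, are set out by gene.
Rel, bases 92 to 83: GGGAAATCCC
Nfkb2, window 1, bases 39 to 30: GGGAATTCCC
Nfkb2, window 1, bases 11 to 2: GGGGCTTTCC
Nfkb2, window 2, bases 236 to 227: GGAATGTCCC
Nfkb2, window 3, bases 225 to 216: GGGACTTTCC
Nfkbia, bases 29 to 20: GGAAATTCCC
Nfkbie, bases 106 to 97: GGGGGATTCC
The Rel match and the one at bases 39 to 30 in window 1 of Nfkb2 each overlapped a further match shifted by 1 base, and windows 2 and 3 of Nfkb2 overlap. A letter match is a description of the sequence and not a measured binding site.

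The whole windows are printed for Rel (chr11:23770970-23771219, minus strand), Nfkbie (chr17:45555450-45555699, plus strand) and Bcl3 (chr7:19822756-19823005, minus strand), as the members with a window that were called in the most comparisons. Capitals mark matches to the kB motif or to the STAT motif TTCNNNGAA, which is bound by the factor that IL6 activates.
Rel: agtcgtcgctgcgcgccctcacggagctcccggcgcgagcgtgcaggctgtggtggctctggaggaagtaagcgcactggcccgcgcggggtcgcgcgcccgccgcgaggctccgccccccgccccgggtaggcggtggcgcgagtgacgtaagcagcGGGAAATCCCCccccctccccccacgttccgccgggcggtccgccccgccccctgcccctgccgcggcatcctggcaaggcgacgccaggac
Nfkbie: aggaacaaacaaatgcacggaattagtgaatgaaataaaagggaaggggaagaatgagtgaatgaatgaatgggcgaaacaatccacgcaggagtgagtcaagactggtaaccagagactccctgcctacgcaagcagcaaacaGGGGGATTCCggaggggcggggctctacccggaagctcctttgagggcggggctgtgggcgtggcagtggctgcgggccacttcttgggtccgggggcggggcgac
Bcl3: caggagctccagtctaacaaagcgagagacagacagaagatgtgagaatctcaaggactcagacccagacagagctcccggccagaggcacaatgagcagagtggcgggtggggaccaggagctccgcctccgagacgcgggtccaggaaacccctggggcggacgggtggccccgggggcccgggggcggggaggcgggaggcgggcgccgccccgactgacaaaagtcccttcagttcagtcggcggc
The STAT motif was present in 7.02% of all windows and, among the members, only in window 1 of Nfkb2, at 148 to 140 bases before the start. The core of the motif for hypoxia-inducible factors, ACGTG or GCGTG, was found in 38.6% of all windows. Among the members it was found in those of Rel and Nfkbie and in windows 2 and 3 of Nfkb2. The AP-1 motif, TGAGTCA or TGACTCA, was found in 4.46% of all windows and, among the members, in that of Nfkbie, at bases 156 to 150, and overlapped none of the others.

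With IL6 in normoxia, both nuclear IkB transcripts were more than 2-fold higher. Of the 9 members, Nfkbiz, Bcl3 and Nfkbie were higher in NC+IL6 than in NC and none was lower, whereas 3.54% of the 9249 genes tested were higher and 1.04% were lower. The median log2 ratio was 0.73 over the members and -0.04 over all genes. In hypoxia, Bcl3 and Nfkbib were higher in HC+IL6 than in HC and no member was lower, beside 2.45% higher and 1.84% lower of 9416 genes. The medians were 0.48 and -0.03.

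Hypoxia was accompanied by 2 calls of members without IL6 and 1 with it, where IL6 had 3 in normoxia and 2 in hypoxia. Without IL6, Nfkbiz and Nfkbie were higher in HC than in NC and none was lower, beside 3.73% higher and 1.07% lower of 9348 genes. The median was 0.21 over the members and 0.04 over all genes, and that of the members was 0.01 after quantile normalization and 0.06 after cyclic loess. With IL6, Rel was the one member lower in HC+IL6, and none was higher, beside 2.75% higher and 1.44% lower of 9324 genes, with medians of 0.09 and 0.02. When the combined treatment was set against the untreated cells, Nfkbiz, Bcl3 and Relb were higher and Rel was lower. Of 9402 genes, 5.63% were higher and 1.72% were lower, and the medians were 0.76 and -0.01. The comparisons with NC share that array, and so their ratios are not independent. The share of higher among all called genes depended on the scaling. It was 77.7% in HC over NC, 65.6% in HC+IL6 over NC+IL6 and 76.6% in HC+IL6 over NC, but 57.3%, 50.5% and 65.7% after quantile normalization. After cyclic loess the first 2 shares were 61.3% and 50.1%. Under both scalings the same members were called, save that Relb was not called in HC+IL6 over NC, with log2 ratios of 0.89 and 0.92. After cyclic loess, Relb was called instead in NC+IL6 over NC.

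**Figure D2:**
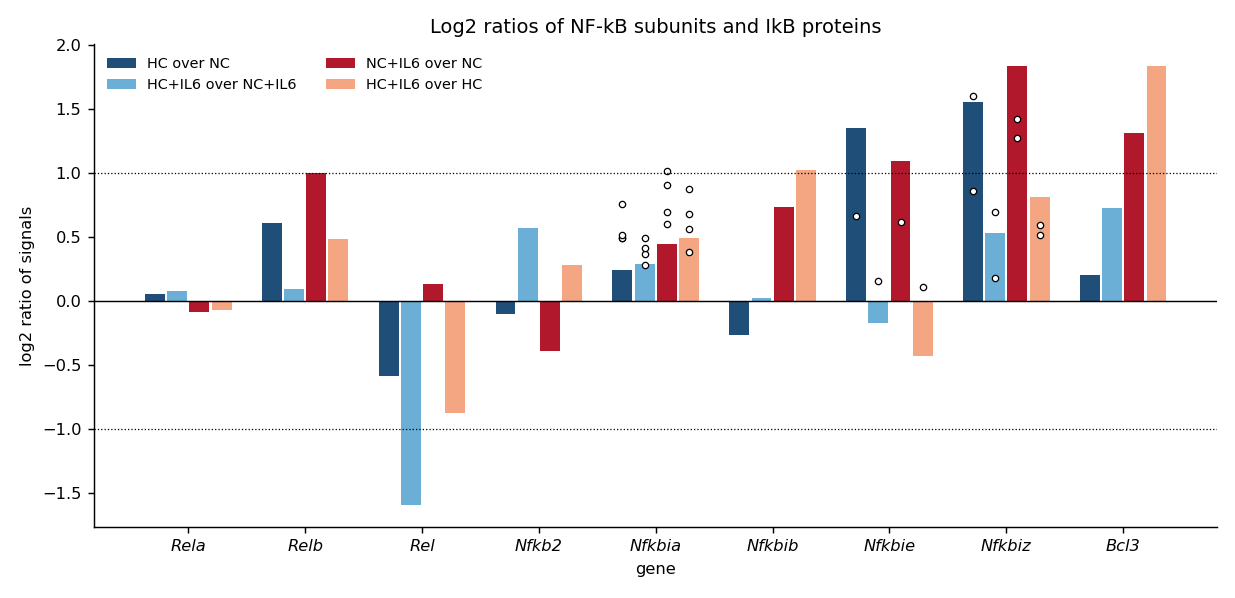
Log2 ratio of signals (vertical axis) for the 9 measured genes (horizontal axis) in the 4 comparisons that differ by 1 treatment, 1 array per condition. Bars are the brightest probe set, open circles the other probe sets above the floor, and dotted lines mark 2-fold. Bars of Nfkbiz and Nfkbie pass the upper line in HC over NC, those of Nfkbiz, Bcl3 and Nfkbie in NC+IL6 over NC, those of Bcl3 and Nfkbib in HC+IL6 over HC, and that of Rel passes the lower line in HC+IL6 over NC+IL6.

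Among the nuclear IkB proteins, Nfkbiz had log2 signals of 8.51 in NC, 10.06 in HC, 10.34 in NC+IL6 and 10.87 in HC+IL6. Each treated culture was above the untreated one, and the culture with both treatments was the highest. With IL6 the signal was 3.56-fold higher in normoxia, and the log2 ratio in hypoxia was 0.81. With hypoxia it was 2.93-fold higher without IL6, and the log2 ratio with IL6 was 0.53. The combined treatment was 5.15-fold above NC. The other 2 probe sets of Nfkbiz had the same signs in all of these comparisons. Their log2 ratios were 1.42 and 1.27 in NC+IL6 over NC, and 1.60 and 0.86 in HC over NC. They put HC+IL6 at 4.33-fold and 2.73-fold above NC. In NC, however, their log2 signals were 6.79 and 6.70, close to the floor of 6.70, where ratios are less firmly measured.

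Bcl3, the other nuclear IkB protein, followed IL6 more than oxygen. Its log2 signals were 7.81 in NC, 8.02 in HC, 9.12 in NC+IL6 and 9.85 in HC+IL6. Both cultures with IL6 lay above both without it. It was 2.48-fold higher with IL6 in normoxia and 3.56-fold higher with IL6 in hypoxia, and the latter log2 ratio of 1.83 was above that of 99.2% of the genes tested. The log2 ratio for hypoxia was 0.21 without IL6 and 0.73 with it. The first of these had the opposite sign, at -0.04, after quantile normalization. In HC+IL6 the signal was 4.11-fold above NC. This gene has 1 probe set.

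Nfkbia, which encodes IkB-alpha, the best known feedback target of NF-kB, had 5 probe sets, and all were above the floor on every array. The brightest had log2 signals of 13.88 in NC, 14.12 in HC, 14.32 in NC+IL6 and 14.61 in HC+IL6, a difference of 1.66-fold between the lowest and the highest. All 5 probe sets gave the same order, with HC+IL6 first, then NC+IL6, HC and NC. The sizes differed, however, with the brightness of the probe set. In NC+IL6 over NC the log2 ratios were 0.44, 0.60, 0.69, 0.90 and 1.02 from the brightest probe set to the dimmest, which had a mean log2 signal of 9.79. In HC+IL6 over NC they were 0.73, 0.88, 1.06, 1.39 and 1.43. The highest log2 signal of any probe set on an array was between 15.54 and 15.71. The part of signal strength in this gradient was not tested. Averaged over its probe sets, Nfkbia had a log2 ratio of 1.10 in HC+IL6 over NC and would be called there.

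**Figure D3:**
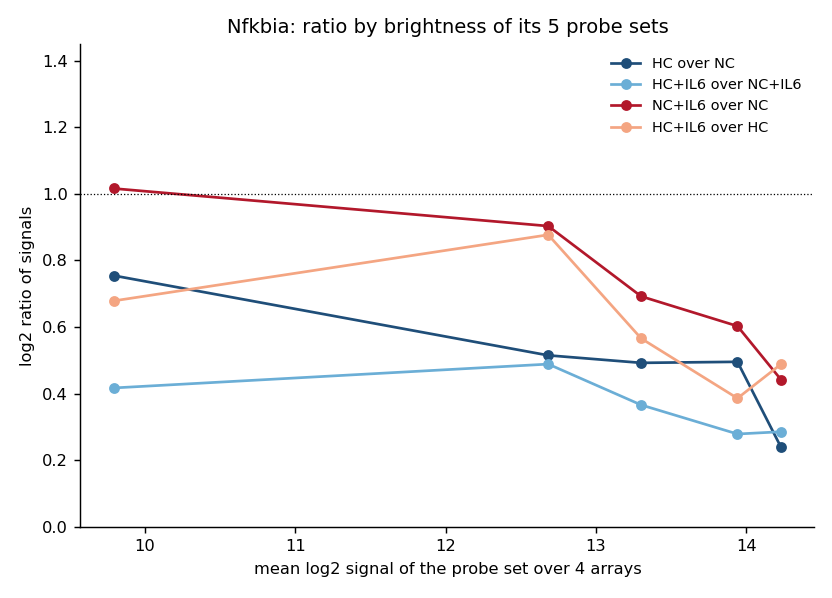
Log2 ratio of signals (vertical axis) of the 5 probe sets of Nfkbia by their mean log2 signal over the 4 arrays (horizontal axis), a line for each comparison. In NC+IL6 over NC the ratio falls from 1.02 at the dimmest probe set to 0.44 at the brightest, and all ratios are above 0. The dotted line marks 2-fold.

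Nfkbie, which encodes IkB-epsilon, had log2 signals of 8.63 in NC, 9.99 in HC, 9.73 in NC+IL6 and 9.55 in HC+IL6. NC was the lowest, and the 3 treated cultures lay within 0.43 of each other. Against NC the gene was 2.55-fold higher in HC and 2.13-fold higher in NC+IL6. With both treatments the log2 ratio was -0.17 against NC+IL6 and -0.43 against HC. The second probe set, which was under the floor in NC, had log2 signals of 6.69 in NC, 7.36 in HC, 7.31 in NC+IL6 and 7.47 in HC+IL6. Its log2 ratios were 0.66 in HC over NC and 0.62 in NC+IL6 over NC, and 0.16 and 0.11 for the same comparisons with the other treatment present. Averaged over both probe sets, the log2 ratio in HC over NC was 1.01 and that in NC+IL6 over NC was 0.86, which is no longer a call.

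Nfkbib, which encodes IkB-beta, had log2 signals of 8.64 in NC, 8.38 in HC, 9.38 in NC+IL6 and 9.40 in HC+IL6. Both cultures with IL6 were above both without it. The log2 ratio for IL6 was 0.73 in normoxia and 1.02 in hypoxia, where it was 2.03-fold higher and just past the limit. For hypoxia it was -0.27 without IL6 and 0.02 with it, and the last value was -0.04 after quantile normalization. The second probe set was under the floor on all arrays. The brightest probe sets of Nfkbib and Nfkbie carry the suffix _s_at, which marks probes that several transcripts can share, so a signal from another transcript cannot be told apart.

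Among the subunits, Rela, which encodes an activating subunit present in most cell types, had log2 signals of 10.38 in NC, 10.44 in HC, 10.29 in NC+IL6 and 10.37 in HC+IL6. Its log2 ratios in all comparisons lay between -0.09 and 0.08. The pooled SD between probe sets of the same gene was 0.28 to 0.34 in these comparisons. It measures how far probe sets disagree and not how far cultures vary.

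Relb, the activating subunit of the noncanonical branch, had log2 signals of 7.06 in NC, 7.67 in HC, 8.06 in NC+IL6 and 8.16 in HC+IL6. NC was the lowest and HC+IL6 the highest, while NC+IL6 and HC+IL6 were close. The linear signal was 134 in NC and 267 in NC+IL6, just under 2-fold and not called. In HC the log2 ratio against NC was 0.61, and in HC+IL6 the signal was 2.13-fold above NC. With IL6 present the hypoxia log2 ratio was 0.09, and -0.09 after quantile normalization. Its signals of 134 to 285 were close to the floor, where ratios are less firmly measured, and the gene has 1 probe set.

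Rel, which encodes c-Rel, went the other way. Its log2 signals were 8.62 in NC, 8.03 in HC, 8.75 in NC+IL6 and 7.17 in HC+IL6. Both hypoxic cultures lay below both normoxic ones. HC+IL6 was 3.01-fold under NC+IL6 and 2.74-fold under NC. The log2 ratio was -0.58 in HC over NC, 0.14 in NC+IL6 over NC and -0.87 in HC+IL6 over HC. Of all genes tested, 0.611% had a lower log2 ratio in HC+IL6 over NC+IL6. These values rest on 1 probe set. Its signal of 144 in HC+IL6 was close to the floor of 115 on that array, where ratios are less firmly measured.

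Nfkb2, the precursor subunit that partners RelB, had log2 signals of 7.50 in NC, 7.40 in HC, 7.11 in NC+IL6 and 7.68 in HC+IL6. The arrays spanned 0.57, and no comparison was called. Its log2 ratios were -0.39 for IL6 in normoxia, 0.28 for IL6 in hypoxia, -0.10 for hypoxia without IL6 and 0.57 for hypoxia with it. The probe set carries the suffix _x_at, which marks probes that can also bind other sequences. The other probe set of Nfkb2 was under the floor on all arrays.

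The ratio for the combined treatment differed from the sum of the single ones for most members. Nfkbiz had log2 ratios of 1.55 for hypoxia and 1.83 for IL6, a sum of 3.38, whereas HC+IL6 over NC gave 2.36. Nfkbie had a sum of 2.45 and a combined log2 ratio of 0.92, and Relb had 1.61 and 1.09. For these 3 genes the culture with both treatments fell short of the sum. Bcl3 had a sum of 1.52 and a combined log2 ratio of 2.04, and Nfkb2 had -0.49 and 0.18, so both lay above the sum. Rel had a sum of -0.45 and reached -1.45. Nfkbia, Nfkbib and Rela differed from their sums by 0.05, 0.29 and 0.02. This difference equals the hypoxia log2 ratio with IL6 minus that without it. Over 9053 genes it had a median of 0.00 and an SD of 0.46, and the middle 80% lay between -0.51 and 0.42. Of the 9 members, 4 were below and 2 above that range, where 20% of all genes lie outside by construction. Relb, at -0.52, lay at the edge. Of the members outside, Relb, Rel, Nfkb2 and Bcl3 had signals within 1.5 of the floor on some or all arrays, where ratios are less precise. The share of 20% is over tested genes of any brightness. The count uses the brightest probe set of each gene. For Nfkbie that one had -1.52, whereas its second probe set, at -0.508, lay just inside the range. The other probe sets of Nfkbiz, at -0.91 and -0.68, lay outside it, but their signals in NC were close to the floor. No test of these differences was possible.

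**Figure D4:**
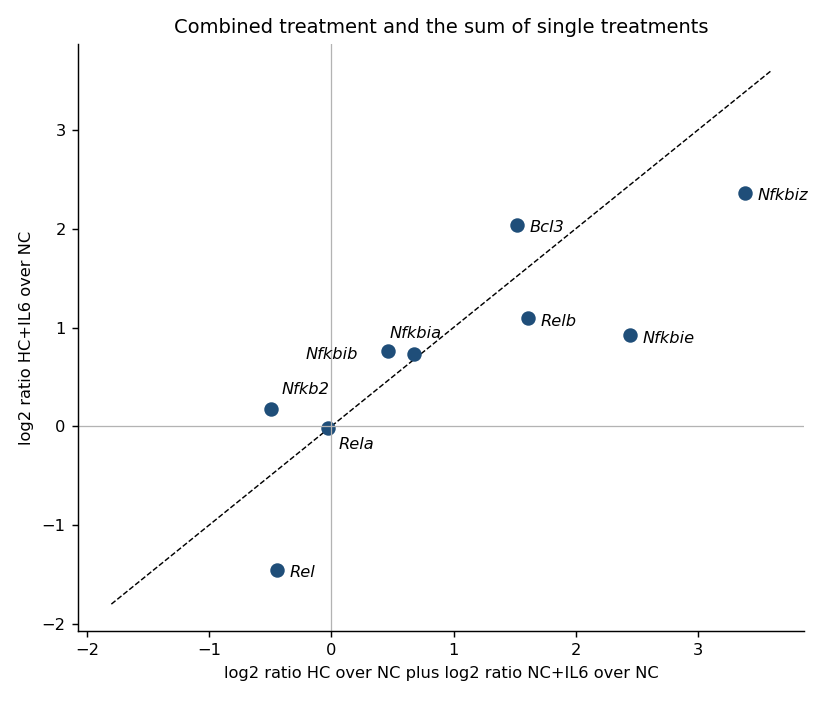
Log2 ratio HC+IL6 over NC (vertical axis) against the sum of the log2 ratios HC over NC and NC+IL6 over NC (horizontal axis) for the brightest probe set of the 9 measured genes. Both axes use the NC array. On the dashed line both are equal. Nfkbiz (3.38 and 2.36), Nfkbie and Relb lie below the line on the higher side, Bcl3 (1.52 and 2.04) lies above it, and Rel (-0.45 and -1.45) lies below it on the lower side.

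Other genes of the pathway were counted by lists, to be read beside the shares of all genes called. Across the comparisons, 2.45% to 5.63% of all genes tested were called higher and 1.04% to 1.84% lower. Of 38 receptors, adaptors and kinases of the pathway, the IKK subunits and IKK-related kinases among them, 31 were tested in each comparison. In NC+IL6 over NC, 4 were higher and 1 was lower, and in HC+IL6 over HC 3 were higher and 1 was lower. In HC over NC none was higher and 1 was lower, and in HC+IL6 over NC+IL6 1 was higher and 1 was lower. In HC+IL6 over NC, 3 were higher and 1 was lower. The medians in these comparisons, in that order, were 0.16, 0.11, 0.26, 0.17 and 0.39. Ikbke, an IKK-related kinase, had the largest difference, with log2 signals of 7.01 in NC, 7.23 in HC, 9.39 in NC+IL6 and 9.56 in HC+IL6. It was 5.23-fold higher with IL6 in normoxia and 5.04-fold in hypoxia, so that only the cultures with IL6 were high.

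Of the core IKK subunits, Ikbkb had log2 ratios between -0.14 and 0.05 in the 4 comparisons that differ by 1 treatment, and its second probe set above the floor had -0.44 to 0.25. Ikbkg, the regulatory subunit, had 0.06 to 0.33, although its other probe sets above the floor ranged from -1.06 to 1.39. Chuk had no probe set under its symbol in the annotation used. Traf1, an adaptor of the tumor necrosis factor receptors, was 3.02-fold higher with IL6 in normoxia, and 2.63-fold lower in hypoxia when both cultures had IL6. Its second probe set had log2 ratios of 0.46 and -0.17. Tab1, a partner of the kinase Tak1, was 2.41-fold lower in NC+IL6 than in NC and 2.29-fold higher in hypoxia when both cultures had IL6, which puts NC+IL6 apart from the other 3 arrays. Cd40, a receptor that activates both branches, was 2.18-fold higher with IL6 in normoxia and at least 2.15-fold in hypoxia. Myd88, the adaptor of Toll-like receptors, had a signal 2.27-fold higher with IL6 in hypoxia. Tnfrsf11a, the receptor RANK, was 2.18-fold lower in HC than in NC, but its second probe set had a log2 ratio of 0.10.

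Among 29 inhibitors and ubiquitin enzymes, 25 were tested in HC over NC and 26 in each other comparison. No comparison had more than 1 higher and 1 lower, beside 2.45% to 5.63% higher and 1.04% to 1.84% lower of all genes. The medians lay between -0.12 and 0.04. Usp18, an interferon-induced protease, was the one called in each comparison that differs by 1 treatment. It was 3.84-fold and 2.02-fold higher with IL6, in normoxia and in hypoxia, and it was 4.85-fold lower in HC than in NC and 9.23-fold lower when both had IL6. Tnip1, a partner of the inhibitor A20, was 2.03-fold lower in HC+IL6 than in HC.

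More of the 51 known NF-kB target genes were called in the comparisons for IL6 than in those for hypoxia. A gene was tested if its brighter array passed the floor. In NC+IL6 over NC, 16 of 35 tested were higher and 1 was lower, beside 3.54% and 1.04% of all genes. The median log2 ratio was 1.06. In HC+IL6 over HC, 11 of 35 were higher and 1 was lower (all genes 2.45% and 1.84%), with a median of 0.70. In HC over NC, 3 of 32 were higher and none was lower (3.73% and 1.07%), with a median of 0.35. In HC+IL6 over NC+IL6, 2 of 35 were higher and 3 were lower (2.75% and 1.44%), with a median of 0.00. In HC+IL6 over NC, 16 of 35 were higher and 1 was lower (5.63% and 1.72%), with a median of 0.92. Cxcl2, Ccl2, Saa3, Il10 and Ccl5, under the floor in NC, entered NC+IL6 over NC only through the IL6 array. Of these, Cxcl2, Ccl2 and Saa3 were called higher there. Il10, Saa3 and Ccl5 were under the floor in HC too, and so were not tested in HC over NC. The medians used signals not raised to the floor. The part of this filter in the contrast between IL6 and hypoxia was not tested. Many of these genes are also known targets of other factors, and of STAT3 in the case of Socs3, so the counts do not measure NF-kB activity alone.

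Among the targets, Ccl4, a chemokine for monocytes, was 9.01-fold higher with IL6 in normoxia and 6.03-fold higher in hypoxia. Ptgs2, the inducible cyclooxygenase, had log2 signals of 9.72 in NC, 11.08 in HC, 12.49 in NC+IL6 and 13.66 in HC+IL6. Ier3, a stress-induced survival gene, was 5.28-fold higher with IL6 in normoxia, 2.41-fold higher with IL6 in hypoxia and 2.51-fold higher in HC than in NC. Cd83, a surface protein of activated antigen-presenting cells, was the only target called lower with IL6, at 6.09-fold in normoxia and 6.24-fold in hypoxia. The chemokine Cxcl2 was at least 51.6-fold higher in NC+IL6 than in NC. For hypoxia it was at least 5.99-fold higher without IL6 and 4.38-fold lower with it. Cxcl10, an interferon-induced chemokine, was 5.06-fold higher in NC+IL6 than in NC, but had a log2 ratio of 0.22 in HC+IL6 over HC. With IL6 present, it was 7.01-fold lower in hypoxia.

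**Figure D5:**
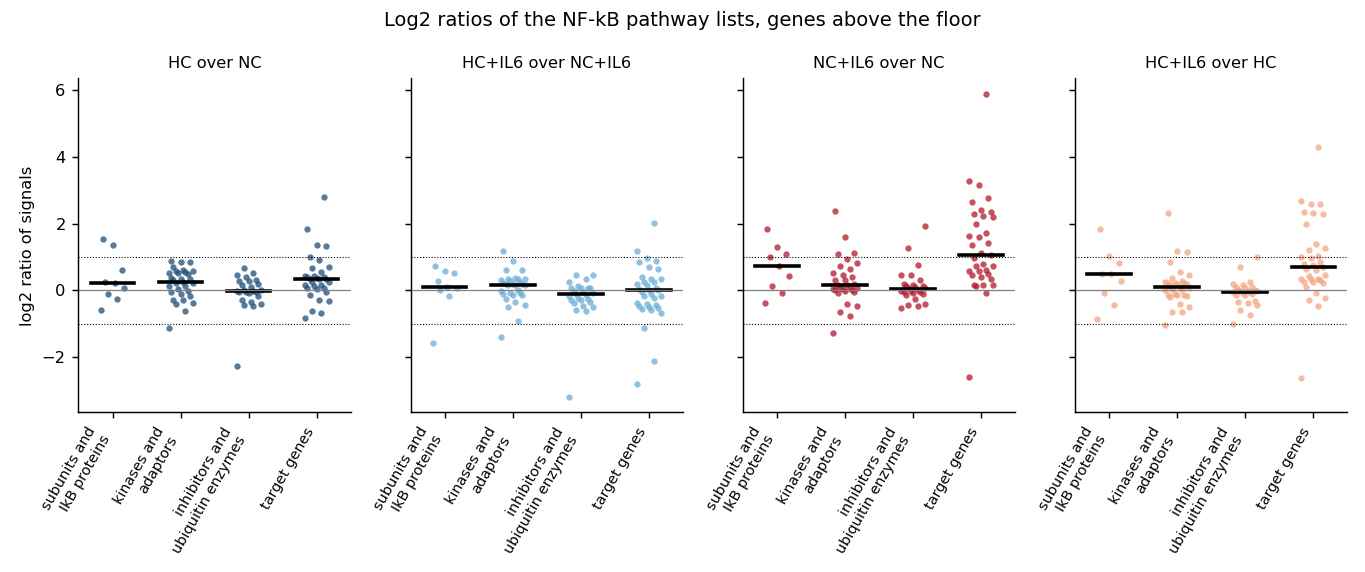
Log2 ratio of signals (vertical axis) of each gene above the floor in the NF-kB subunits and IkB proteins and in the 3 pathway lists (horizontal axis), a panel for each comparison that differs by 1 treatment. Black bars are medians and dotted lines mark 2-fold. In NC+IL6 over NC the medians are 0.73 for subunits and IkB proteins and 1.06 for target genes, against 0.16 for kinases and adaptors and 0.04 for inhibitors and ubiquitin enzymes.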

How the data were processed

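RNA from 4 cultures of RAW264.7 was hybridized to 1 Affymetrix array each. The authors deposited log2 signals of 45101 probe sets, made with MAS5 per the labels (sources used here give no version). The 2% trimmed mean signal is 500.0 on every array, and 256 to 437 probe sets per array are listed at 0. Detection calls were not used here.

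From these values log2 ratios of pairs of arrays were computed with Python 3.11.15, numpy 2.4.6 and pandas 2.3.3, and drawn with matplotlib 3.10.9. Of the probe sets, 34958 carry 1 symbol, 932 carry several and were left out, and 9211 are not listed in the annotation. Gene numbers of 34754 matched RefSeq and 0 symbols changed. The brightest probe set by mean log2 signal represents each of 18194 genes. The floor list held 70 genes, of which 64 were measured. A dimmer signal under the floor was raised to it before a fold was taken. Calls used 2-fold, the threshold of the study, and have no test. The code that makes the calls was checked on simulated data, which is no test of a difference.

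The members and lists were chosen with earlier results of these data known. Named genes are the 10 members, up to 6 called genes of each list by size, and the IKK subunits. Socs3, Epcam, Itgam and Fcgr3 were named after their values were seen. Promoter windows come from the RefSeq table of GRCm38.p6. Alternatives tried were cyclic loess and quantile normalization (limma 3.58.1, R 4.3.3), other floors, an added background, the mean over probe sets and a threshold of 1.5-fold.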

Additional observations from a re-analysis of the deposited data

Results flagged for a closer look

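Nfkbie differed in direction between the oxygen conditions. Its brightest probe set had a log2 ratio of 1.09 in NC+IL6 over NC and -0.43 in HC+IL6 over HC, and both sizes exceeded the pooled SD between probe sets of 1 gene, which was 0.28 and 0.31. The second probe set had 0.62 and 0.11, which is the same sign in both. With 1 array per condition the difference was not tested.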

How the results depend on the processing

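Without a floor, or with it at the median of the off-tissue genes, the 12 calls of members over the 5 comparisons could not change. The brightest probe sets of all 9 measured members already lay above the floor on every array. Of the 12, 11 remained after quantile normalization, after cyclic loess and with probe sets averaged, and 10 remained when the off-tissue median was added to every signal. The calls lost were Relb in HC+IL6 over NC, Nfkbib in HC+IL6 over HC (1 member then called there in place of 2) and Nfkbie in NC+IL6 over NC. At 1.5-fold, the members called were 2 in HC+IL6 over NC+IL6 (1 at 2-fold), 5 in NC+IL6 over NC (3), 4 in HC+IL6 over HC (2) and 7 in HC+IL6 over NC (4). No called member changed sign. Averaging of probe sets could alter only Nfkbia, Nfkbie and Nfkbiz, as each other measured member has 1 probe set above the floor. The ratios and calls of those other members were therefore fixed under averaging. Of the 180 log2 ratios of members recomputed under an alternative, these among them, 175 moved by less than the pooled SD between probe sets. The other 5 moved with the averaging of probe sets. The medians over the members moved by less than that SD, as did the median difference of the hypoxia ratios, which was 0.02 but turned negative, at -0.11 after quantile normalization, -0.03 after cyclic loess and -0.13 with probe sets averaged. For the lists, called kinases and adaptors in HC+IL6 over NC+IL6 were 2, but 1 after quantile normalization, and called inhibitors in HC+IL6 over HC were 2, but 1 after cyclic loess. Some of the brightest probe sets lie within 1.5 of the floor on the log2 scale, where ratios are less precise. These are Relb and Nfkb2 on all arrays, Bcl3 in NC and HC, and Rel in HC and HC+IL6. The dimmer probe sets of Nfkbiz also lie there in NC. No paired analysis was possible because each condition has 1 array.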
